A study of Homo sapiens with 7 samples.

Results

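The Frizzled family, FZD1 to FZD10, was followed in human embryonic stem cells (hESCs) before and during forced expression of a histone H3K27 demethylase. Members were the entries whose gene name was FZD1 to FZD10, 10 of 22670 entries. The rule uses names and no value, but the family was picked with earlier results of these data known. An eleventh entry named FZD9 lies on a patch sequence outside the chromosomes, was listed at 0 in every library and was left out.

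RNA-seq was analysed for 7 libraries, 1 per condition. JMJD3c-hESCs are SEES-3 cells, an established hESC line, with a Dox-inducible C-terminal part of JMJD3 (KDM6B) that holds the catalytic domain, and they were taken untreated (Day 0) or after 1, 2, 3 or 4 days with Dox (1 µg/ml). JMJD3c mut-hESCs carry an inducible form whose catalytic activity was removed by a point mutation, and were taken untreated or after 4 days with Dox. All cells shared the SEES-3 background, the Tet-On transactivator, a piggyBac-integrated transgene, and feeder-free culture that was kept unchanged. The lines were separately derived, so a difference between them cannot be told apart from a difference between clones. No condition had a replicate, so the differences carry no p-value and no check across cultures. The values are FPKM (fragments per kilobase of transcript, scaled to the mapped fragments of the library), with the 95% interval that Cufflinks gives for 1 library. That interval does not cover variation between cultures. Low FPKM values fell on steps of whole reads, and reading each step as 1 read gave an estimate of 1780000 reads at Day 0, the shallowest library, and 2430000 to 3650000 in the others. If a step stood for more than 1 read, all read numbers would be higher and the counting intervals narrower. For the 6 members with 1 exon (FZD1, FZD2, FZD7, FZD8, FZD9 and FZD10) these steps also gave an estimated read number. Read numbers and their intervals cover counting error only.

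Frizzled proteins are membrane-spanning receptors that bind Wnt ligands through a cysteine-rich extracellular domain. With LRP5 or LRP6 as co-receptor they pass the signal through Dishevelled and stabilise β-catenin, and with ROR1, ROR2, RYK or PTK7 they take part in β-catenin-independent branches. ZNRF3 and RNF43 are ubiquitin ligases that remove Frizzled proteins from the cell surface, and R-spondins with LGR4, LGR5 or LGR6 oppose that removal. In pluripotent cells Wnt signalling through these receptors is known for its part in primitive streak and mesendoderm formation. By sequence the family is commonly grouped as FZD1, FZD2 and FZD7, as FZD5 and FZD8, as FZD3 and FZD6, and as FZD4, FZD9 and FZD10. Reads could in principle be shared between close members. The longest exact run shared by the transcripts of any pair was 81 bases, between FZD1 and FZD2. It was followed by 69 bases between FZD2 and FZD7, and both were shorter than a 150-base read. Only exact runs were searched, so sharing of reads that map with mismatches was not tested.

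The start regions of 5 members, FZD1, FZD4, FZD5, FZD8 and FZD9, were in the RefSeq promoter table (GRCh38.p14). FZD2, FZD3, FZD6, FZD7 and FZD10 had no entry. The 250 bases before the start site are shown for FZD1, FZD4 and FZD8, whose values at Day 4 stood above both mutant libraries, and for FZD5, which did not. They are printed 5′ to 3′ on the strand of the gene, with each CG dinucleotide in capitals, because H3K27me3 in embryonic stem cells is known to lie over CG-rich start regions. Their coordinates belong to a different build from that of the expression values.
FZD1, chr7:91264183-91264432 (+ strand): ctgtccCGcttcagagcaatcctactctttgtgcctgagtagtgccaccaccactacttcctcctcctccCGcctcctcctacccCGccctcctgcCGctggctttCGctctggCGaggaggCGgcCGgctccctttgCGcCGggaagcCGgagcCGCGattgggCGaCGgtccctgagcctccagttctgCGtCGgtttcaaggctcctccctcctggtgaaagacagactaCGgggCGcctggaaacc
FZD4, chr11:86955396-86955645 (- strand): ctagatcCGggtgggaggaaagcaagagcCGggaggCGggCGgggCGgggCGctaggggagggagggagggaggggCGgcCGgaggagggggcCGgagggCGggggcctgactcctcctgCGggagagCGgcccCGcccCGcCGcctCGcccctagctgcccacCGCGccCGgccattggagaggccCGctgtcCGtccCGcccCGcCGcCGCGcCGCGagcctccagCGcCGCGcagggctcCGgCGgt
FZD8, chr10:35642297-35642546 (- strand): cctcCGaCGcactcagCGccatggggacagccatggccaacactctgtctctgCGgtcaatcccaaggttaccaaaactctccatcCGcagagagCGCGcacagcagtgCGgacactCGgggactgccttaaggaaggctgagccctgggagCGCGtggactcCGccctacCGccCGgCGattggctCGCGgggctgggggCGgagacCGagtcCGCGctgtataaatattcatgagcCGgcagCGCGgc
FZD5, chr2:207769907-207770156 (- strand): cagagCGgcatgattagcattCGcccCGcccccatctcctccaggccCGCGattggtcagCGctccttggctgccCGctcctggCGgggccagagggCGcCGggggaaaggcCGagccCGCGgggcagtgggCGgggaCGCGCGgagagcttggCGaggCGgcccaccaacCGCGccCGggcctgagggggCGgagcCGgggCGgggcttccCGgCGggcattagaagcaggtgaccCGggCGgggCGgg
FZD4 held 33 CG dinucleotides in this window, and 8.15% of the 35116 promoters in the table held as many or more. FZD5 held 30, FZD8 held 24, FZD9 held 23 and FZD1 held 19, against a median of 11.0 over all promoters. FZD1 and FZD4, both above the mutant libraries at Day 4, held the lowest and the highest CG number of the 5. Whether CG number and expression go together was not tested. The letters TCAAAG, the core of the motif of the TCF and LEF factors, occurred on neither strand of the 5 windows. They occurred in 11.2% of all promoters of the same length.

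In untreated JMJD3c-hESCs FZD5 and FZD7 carried most of the Frizzled mRNA. At Day 0 FZD5 was listed at 19.0 FPKM and FZD7 at 18.8 FPKM, together 53.9% of a summed 70.1 FPKM over the 10 members. They were followed by FZD3 at 8.98, FZD6 at 6.07, FZD2 at 5.37, FZD8 at 4.71 and FZD4 at 3.88 FPKM. FZD10 at 1.46, FZD9 at 1.31 and FZD1 at 0.543 FPKM were the low members. Between neighbours in this order, the Cufflinks intervals were apart only between FZD7 and FZD3 and between FZD4 and FZD10. FZD5 and FZD7 held the top 2 places in all 7 libraries, and FZD1, FZD9 and FZD10 the bottom 3. The interval of FZD5 was apart from that of FZD7 in 1 library, the mutant line without Dox, where FZD5 was listed at 27.2 and FZD7 at 19.1 FPKM. FPKM is per length of the gene model used, and that model affects the order. The files list FZD2 over 1983 bases, 52.5% of its longest transcript in GENCODE release 44, and FZD1 over 63.0%, FZD8 over 78.7% and FZD7 over 84.0%.

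A member counted as upregulated when its FPKM was over 2 times that of the reference and itself over 4 FPKM, and as downregulated in the reverse case (a call). FZD2 was the 1 member called at Day 4 against Day 0, and none was called downregulated. FZD1 (ratio 3.83) and FZD9 (ratio 0.146) were past the ratio but below 4 FPKM in both libraries, and the other members were within it. In all, 7 of the 10 passed the cutoff of 4 FPKM in either library. Of all 10247 genes above the cutoff in either library, 5.87% were called upregulated and 7.56% downregulated, and 1 call among 7 genes is too few to set the family apart from this background. The median log2 fold change of FPKM + 1 was 0.45 over all 10 members, including those below the cutoff, against -0.06 over genes above it. These medians are therefore not like for like. The 7 members above the cutoff had values of 1.00 (FZD2), 0.65 (FZD8), 0.57 (FZD4), 0.33 (FZD7), 0.05 (FZD5), -0.07 (FZD6) and -0.14 (FZD3). By FPKM, 7 members were higher and 3 lower at Day 4. In bulk RNA, a change in the share of cells of a type and a change in RNA per cell cannot be told apart.

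FZD2 (ENSG00000180340, chromosome 17 of hg19, 42634925 to 42636907, forward strand, 1 exon) is a receptor for canonical and for WNT5A-type signals. It was listed at 5.37, 9.90, 13.4, 17.8 and 11.8 FPKM at Days 0, 1, 2, 3 and 4, on about 17, 47, 77, 109 and 51 reads. The mutant libraries had 7.20 FPKM without and 11.2 FPKM with Dox, on 47 and 64 reads. Day 0 was the lowest of the 7 libraries and Day 3 the highest, and the mutant library with Dox stood level with Day 4. The ratio to Day 0 was 3.31 at Day 3 (counting interval 1.98 to 5.90) and 2.19 at Day 4 (1.25 to 4.05), and the Cufflinks intervals were apart from Day 0 on Days 2, 3 and 4. Dox in the mutant line gave a ratio of 1.56 (1.05 to 2.31), below the cutoff for a call. The rise in the JMJD3c line was 1.41 times that in the mutant line, with a counting interval of 0.723 to 2.74 that includes 1. Against the mutant line without Dox, Day 4 had a ratio of 1.63 and FZD2 was not called, and against the mutant line with Dox the ratio was 1.05. The call at Day 4 therefore held against only 1 of the untreated libraries. At Day 3 FZD2 also passed the rule against the mutant line without Dox (17.8 against 7.20 FPKM), but at Day 2 it did not.

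FZD1 and FZD7 are the closest relatives of FZD2. FZD7 (ENSG00000155760, chromosome 2, 202899310 to 202903160, forward strand, 1 exon), known as a main Wnt receptor of undifferentiated hESCs, was listed at 18.8, 23.0, 25.6, 21.7 and 23.8 FPKM over Days 0 to 4, and at 19.1 and 24.5 FPKM in the mutant line without and with Dox. It had the most reads of the 6 members with read estimates, about 122 at Day 0 and 212 at Day 4, and the narrowest ratios. The Dox ratio was 1.27 (counting interval 1.01 to 1.60) in the JMJD3c line and 1.28 (1.08 to 1.52) in the mutant line. The ratio of these ratios was 0.989, with a counting interval of 0.748 to 1.31.

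FZD1 (ENSG00000157240, chromosome 7, 90893783 to 90898123, forward strand, 1 exon) stayed below the 4 FPKM cutoff in every library. It was listed at 0.543, 0.634, 0.900, 1.40 and 2.08 FPKM at Days 0 to 4, and at 0.263 and 0.226 FPKM in the mutant line without and with Dox. Each library of the JMJD3c line lay above the one before, and all 5 lay above both mutant libraries. The Cufflinks intervals of neighbouring days overlapped at each step. About 4 reads stood behind the Day 0 value, 21 behind Day 4, 4 behind the mutant line without Dox and 3 behind the mutant line with Dox. The ratio of the untreated mutant line to Day 0, 0.485, had a counting interval of 0.0906 to 2.61. The ratio of Day 4 to Day 0 was 3.83 (counting interval 1.29 to 15.4), and to the mutant line with Dox it was 9.21 (2.75 to 48.2). In both, the Cufflinks intervals were apart. The ratio of the 2 Dox ratios was 4.47, and its counting interval, 0.710 to 28.1, includes 1.

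FZD5 and FZD8 form a second pair of relatives, and they did not move alike. FZD5 (ENSG00000163251, chromosome 2, 208627310 to 208634287, reverse strand, 2 exons), a receptor needed in the mouse yolk sac, was listed at 19.0, 24.4, 21.9, 22.4 and 19.7 FPKM over Days 0 to 4. The mutant libraries had 27.2 FPKM without and 20.4 FPKM with Dox. The highest value was that of the untreated mutant line, and Day 0 and Day 4 were level, with a ratio of 1.04. Intervals were apart between Day 1 and Day 0, between the mutant libraries (ratio 0.748), between the untreated libraries (ratio 1.43) and between Day 4 and the untreated mutant line (ratio 0.723), none of which passed the cutoff for a call.

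FZD8 (ENSG00000177283, chromosome 10, 35927177 to 35930362, reverse strand, 1 exon), a receptor that binds several canonical Wnts, was listed at 4.71, 5.53, 6.97, 7.89 and 7.98 FPKM at Days 0 to 4, on about 25, 44, 67, 81 and 58 reads. The mutant libraries had 3.65 and 4.18 FPKM without and with Dox, on 40 reads each. All 5 libraries of the JMJD3c line lay above both mutant libraries. Day 4 had a ratio of 1.69 to Day 0 (counting interval 1.04 to 2.83), with overlapping Cufflinks intervals. Its ratio was 1.91 (1.25 to 2.93) to the mutant line with Dox and 2.18 (1.43 to 3.34) to the mutant line without Dox, and in both the Cufflinks intervals were apart. The last of these passed the rule for a call. GENCODE places a microRNA gene, MIR4683, on the same strand and a long non-coding RNA gene on the opposite strand of this locus.

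FZD4 was the member that differed from Day 0 most steadily. FZD4 (ENSG00000174804, chromosome 11, 86656721 to 86666433, reverse strand, 2 exons) is the receptor of Norrin, a ligand outside the Wnt family, and is known for its part in retinal vessels. It was listed with 3.88 FPKM on Day 0 and at 6.21, 6.09, 6.76 and 6.27 FPKM at Days 1 to 4, and at 3.06 and 2.82 FPKM in the mutant line without and with Dox. The 4 libraries with induced JMJD3c were the highest and lay close together, Day 0 came next and both mutant libraries were lowest. The ratio of Day 4 to Day 0 was 1.62, below the cutoff for a call, and the Cufflinks intervals were apart from Day 0 on each of the 4 days. Day 4 was called against the mutant line with Dox, with a ratio of 2.22, and against the mutant line without Dox, with a ratio of 2.05. Dox in the mutant line gave a ratio of 0.923 with overlapping intervals. The 3′ part of PRSS23, a serine protease gene on the opposite strand, overlaps FZD4 in the annotation, and whether reads were assigned by strand is not given in the sources used here. PRSS23 was listed at 6.57, 4.39, 6.39, 7.73 and 8.25 FPKM over Days 0 to 4 and at 4.13 and 4.45 FPKM in the mutant line. PRSS23 was lower than at Day 0 on Days 1 and 2 and higher on Days 3 and 4. Its Day 4 value also lay above both mutant libraries. The part of PRSS23 reads in the FZD4 values was not tested.

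FZD3 and FZD6 are known for planar cell polarity. FZD3 (ENSG00000104290, chromosome 8, 28351729 to 28431775, forward strand, 8 exons), which also guides axons, was listed at 8.98, 11.6, 12.6, 9.32 and 8.07 FPKM over Days 0 to 4 and at 13.5 and 15.3 FPKM in the mutant line without and with Dox. It was the 1 member lower at Day 4 than in the mutant line with Dox with intervals apart, at a ratio of 0.528, which did not pass the cutoff for a call. The ratio of Day 4 to Day 0 was 0.898 with overlapping intervals, and the untreated mutant line already stood above Day 0 at a ratio of 1.51. FZD6 (ENSG00000164930, chromosome 8, 104310661 to 104345087, forward strand, 7 exons), a receptor of skin and hair patterning, was listed at 6.07, 5.66, 8.60, 8.22 and 5.73 FPKM over Days 0 to 4, and at 4.38 and 5.15 FPKM in the mutant line. Its values at Days 2 and 3 were the highest of the 7, and its interval overlapped that of the reference library in every comparison made. Both loci overlap non-coding genes on the opposite strand in GENCODE.

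FZD9 and FZD10 were low in every library. FZD9 (ENSG00000188763, chromosome 7, 72848109 to 72850450, forward strand, 1 exon), known from bone and neural progenitors, was listed at 1.31, 0.701, 0.290, 0.407 and 0.192 FPKM at Days 0 to 4 and at 0.382 and 0.583 FPKM in the mutant line. These values rest on 5, 4, 2, 3 and 1 reads, and on 3 and 4 reads. Day 0 was the highest library, and the ratio of Day 4 to Day 0, 0.146, had a counting interval from 0.00309 to 1.31, so a difference was not detectable at this depth. FZD10 (ENSG00000111432, chromosome 12, 130647004 to 130650285, forward strand, 1 exon) was listed at 1.46, 0.852, 1.21, 1.32 and 2.66 FPKM over Days 0 to 4 and at 0.708 and 0.911 FPKM in the mutant line. Day 4 was the highest of the 7 libraries, on about 20 reads, against 8 reads at Day 0 and 9 in the mutant line with Dox. Its ratio was 1.83 (counting interval 0.771 to 4.80) to Day 0, 2.92 (1.27 to 7.29) to the mutant line with Dox and 3.76 (1.58 to 9.85) to the mutant line without Dox. Only in the last were the Cufflinks intervals apart.

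The number of calls was small in each comparison and is set beside the share of all genes called. At Day 1 no member was called, against 3.48% of all genes upregulated and 3.27% downregulated. At Day 2, FZD2 was called upregulated, against 3.90% upregulated and 4.24% downregulated. At Day 3, FZD2 was again the only member called, against 4.73% and 4.48%. With Dox in the mutant line no member was called, against 1.24% upregulated and 1.53% downregulated. The median log2 fold change was 0.16 over the 10 members, against 0.00 over genes above the cutoff. Between Day 4 and the mutant line with Dox, FZD4 was called higher, against 6.56% of genes higher and 3.00% lower. The median was 0.10 over the 10 members, against -0.02 over genes above the cutoff. Because the member medians include members below the cutoff, these pairs of medians are not like for like.

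The untreated libraries also differed from each other. Between the mutant line without Dox and Day 0, 2.78% of all genes were called higher and 7.00% lower. No member was called, and 6 of 10 were lower in the mutant line. The median was -0.28 over the 10 members and -0.05 over genes above the cutoff, so these medians are not like for like. Only 6 members passed the cutoff. Of these, FZD2 (0.37), FZD3 (0.54), FZD5 (0.50) and FZD7 (0.02) were higher in the mutant line, and FZD6 (-0.39) and FZD8 (-0.29) lower. When Day 4 was set against the mutant line without Dox, FZD4 and FZD8 were called higher and none lower, against 7.04% and 3.90% of all genes, and FZD2 was no longer called. These comparisons share libraries and are not independent of each other. Among the 7 members above the cutoff, Cufflinks intervals were apart for 2 at Day 4 against Day 0 (FZD2 and FZD4), where 12.1% of all genes above the cutoff had intervals apart. They were apart for 3 of 7 between Day 4 and the mutant line with Dox (FZD4 and FZD8 higher, FZD3 lower), where the share over all such genes was 16.3%. FZD1, below the cutoff, also had intervals apart in both.

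The summed Frizzled mRNA changed less than some of its members. It was 70.1, 88.6, 97.5, 97.3 and 88.2 FPKM at Days 0 to 4, and 79.5 and 85.2 FPKM in the mutant line without and with Dox. Day 0 was the lowest library, and the mutant line with Dox lay close to Day 4. FZD2 made up 7.65% of the sum at Day 0, 18.3% by Day 3 and 13.3% by Day 4, against 9.05% and 13.1% in the mutant line without and with Dox. FZD3 made up 12.8% at Day 0 and 9.14% at Day 4, against 17.0% and 17.9% in the mutant line. The share of FZD5 and FZD7 together ranged from 45.4% at Day 3 to 58.3% in the untreated mutant line.

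**Figure D1:**
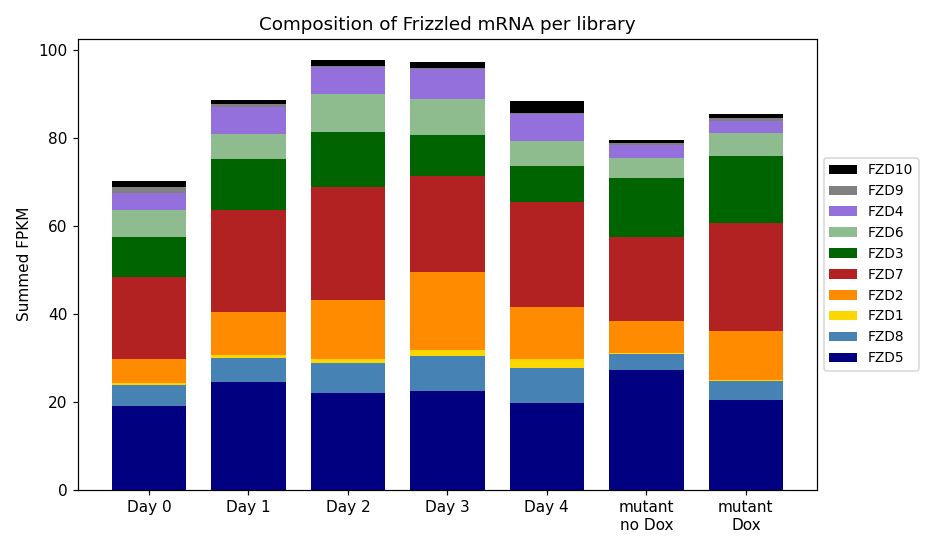
Summed FPKM (vertical axis, from 0) of the 10 Frizzled genes in each library, stacked by gene and with relatives next to each other, 1 library per bar. The sum lies between 70.1 FPKM at Day 0 and 97.5 FPKM at Day 2, and the band of FZD2 is widest at Day 3.

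Across the 7 libraries, FZD1 and FZD8 had a Pearson r of 0.94 on log2(FPKM + 1), and FZD4 and FZD8 had 0.92. The 7 points are 5 days of 1 line and 2 libraries of the other, so a difference between lines enters every such value. FZD2 and FZD4 were the members above 4 FPKM that varied by at least 1 on this scale. Of 2371 genes with a mean of 4 FPKM or more and the same range, those most like FZD2 were C1orf50 (r = 0.959), FAM184A (r = 0.949) and DMPK (r = 0.941), and 14 genes reached 0.9. Those most like FZD4 were SOX3 (r = 0.986), NAV2 (r = 0.984) and NUDT14 (r = 0.983), and 82 genes reached 0.9. SOX3, a transcription factor of neural progenitors, was listed with 9.61 FPKM on Day 0, at 17.1 to 21.4 FPKM on the later days, and at 6.56 and 7.00 FPKM in the mutant line.

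The genes that act with the Frizzled receptors were taken from 9 lists with 65 genes found, chosen like the members with earlier results of these data known. At Day 4 against Day 0, 5 of these were called upregulated (RYK, SFRP1, DKK4, TSPAN12 and SHISA2) and 3 downregulated (ZNRF3, LGR4 and SFRP5), of 31 above the cutoff, against 5.87% and 7.56% of all genes. The median log2 fold change over the 65 genes was 0.00, a value that includes the genes below the cutoff, some of them at 0 in both libraries. With Dox in the mutant line, WNT5A was called downregulated and none was called upregulated, of 27 above the cutoff, against 1.53% and 1.24% of all genes.

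Among the co-receptors, 1 of 6 was called. RYK, a receptor for WNT5A-type signals, was listed at 20.1, 32.4, 27.8, 44.3 and 43.5 FPKM at Days 0 to 4, and at 35.3 and 36.5 FPKM in the mutant line without and with Dox. Day 0 was the lowest library here too, and Day 4 was 1.19 times the mutant line with Dox. PTK7 at 63.4 FPKM was the highest co-receptor at Day 0 and was at 63.4 FPKM at Day 4. ROR1 had a ratio of 0.636 at Day 4 and was called lower than the mutant line with Dox, at 11.7 against 24.3 FPKM, but the untreated libraries already stood at 18.3 FPKM (Day 0) and 30.1 FPKM (mutant line). LRP5 and LRP6 were not called, and neither was SMO, the Hedgehog transducer of the same receptor class, at 25.9 FPKM at Day 0 and 23.9 at Day 4.

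Of the 9 genes for R-spondins and Frizzled turnover, 2 were above the cutoff and both were called downregulated at Day 4. LGR4, an R-spondin receptor, was listed at 34.7, 33.1, 30.8, 20.4 and 16.2 FPKM at Days 0 to 4, and at 38.4 and 24.6 FPKM in the mutant line without and with Dox. ZNRF3, the ligase that removes Frizzled proteins, was listed at 8.89, 7.00, 6.03, 5.32 and 4.00 FPKM, and at 6.75 and 4.89 FPKM. Both genes were lowest at Day 4, and both were also lower with Dox in the mutant line, at ratios of 0.640 for LGR4 and 0.725 for ZNRF3, which were not calls. RNF43 ranged from 0.698 to 1.71 FPKM, and RSPO4, the highest R-spondin at Day 0, was listed at 1.08 FPKM there and at 1.80 FPKM at Day 4.

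Of the 10 secreted antagonists, 2 were called upregulated and 1 downregulated at Day 4. SFRP1, which binds Wnts and Frizzled proteins, was listed at 21.7, 36.0, 68.0, 65.7 and 52.8 FPKM at Days 0 to 4 and at 26.8 and 30.2 FPKM in the mutant line. All 4 induced libraries lay above both mutant libraries, and the ratio at Day 4 was 2.44. DKK4, which blocks LRP5 and LRP6, was listed at 0 at Days 0 and 1 and in both mutant libraries, and at 8.98, 13.0 and 18.4 FPKM at Days 2 to 4. SFRP5 was at 4.13 FPKM on Day 0 and 0.502 FPKM on Day 4, but also at 1.34 FPKM in the untreated mutant line. SFRP2, the most abundant antagonist, was listed at 156 and 138 FPKM at Days 0 and 4 and DKK3 at 8.55 and 7.59 FPKM, and neither was called.

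Of the 4 genes listed as Norrin and FZD4 partners, 1 was called. TSPAN12, the tetraspanin that joins FZD4 in Norrin signalling, was listed at 9.66, 11.9, 15.8, 14.2 and 19.9 FPKM at Days 0 to 4, and at 9.34 and 7.24 FPKM in the mutant line without and with Dox. Its ratio was 2.06 at Day 4, with a Day 0 interval of 2.82 to 18.9 FPKM that overlapped that of Day 4, and 2.75 against the mutant line with Dox. NDP, the gene of Norrin itself, was listed at 0 in all 5 libraries of the JMJD3c line. GPR124 was at 4.55 FPKM on Day 0 and 2.65 FPKM on Day 4, and RECK, its partner in WNT7 signalling, at 2.04 and 2.01 FPKM. SHISA2, of a family that holds Frizzled proteins back in the endoplasmic reticulum, was listed at 0.211, 2.96, 7.82, 10.4 and 8.34 FPKM at Days 0 to 4 and at 1.74 and 1.88 FPKM in the mutant line. SHISA3 was at 0.318 FPKM on Day 0 and 1.86 FPKM on Day 4 and stayed below the cutoff.

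Few Wnt ligand genes were measured above the cutoff, 2 of 19 at Day 4 or Day 0. WNT3, a canonical ligand of the primitive streak, was at 6.06 FPKM on Day 0 and 10.9 FPKM on Day 4, a ratio of 1.80 with intervals apart. In the mutant line it was at 5.27 and 2.77 FPKM without and with Dox, a ratio of 0.525. Day 4 was called higher than both mutant libraries for WNT3, at a ratio of 3.95 to the mutant line with Dox. WNT5A was listed at 4.60 and 4.96 FPKM at Days 0 and 4, and at 6.46 and 2.55 FPKM in the mutant line, a ratio of 0.396. WNT5B was listed at 2.84 and 1.66 FPKM. None of the 3 Dishevelled genes was called, and DVL2, the highest, was at 21.0 FPKM on Day 0 and 23.8 FPKM on Day 4, with DVL3 at 16.9 and 20.8 and DVL1 at 14.3 and 13.2. None of the 11 genes of the β-catenin branch was called at Day 4. CTNNB1, the gene of β-catenin, was listed at 151 and 226 FPKM, a ratio of 1.49 with intervals apart, and at 196 and 205 FPKM in the mutant line without and with Dox, so Day 0 was again the lowest library. On the same days CSNK1A1 was listed at 111 and 77.4 FPKM and TCF7L1 at 48.6 and 44.5 FPKM. TCF7 was called higher at Day 4 than in the mutant line with Dox, at 7.29 against 3.20 FPKM, and was picked out after its values were seen. The untreated libraries already differed, at 5.86 FPKM (Day 0) and 2.46 FPKM (mutant line), and the Dox ratio was 1.24 in the JMJD3c line and 1.30 in the mutant line. AXIN2, a common target of β-catenin signalling that was also picked out after its values were seen, was listed at 17.6 and 14.4 FPKM on Days 0 and 4 and at 9.64 and 11.1 FPKM in the mutant line.

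The induced gene and the cell type markers are given beside these results. KDM6B, whose reads include the transgene, was listed with 3.45 FPKM on Day 0 and at 158 to 282 FPKM at Days 1 to 4, and at 2.40 and 454 FPKM in the mutant line without and with Dox, which matches the labelled Dox treatment. The summed level of 8 pluripotent stem cell markers ranged from 1660 FPKM at Day 4 to 2340 FPKM at Day 0, and all 8 were lower with Dox in both lines. All 9 mesendoderm markers were called at Day 4, with a sum of 5.49 FPKM at Day 0, 320 at Day 4 and 8.12 in the mutant line with Dox. Of 5 neuroectoderm markers, 2 were called upregulated at Day 4, PAX6 (2.22 and 5.91 FPKM at Days 0 and 4) and ZIC1 (4.99 and 15.8 FPKM). For both genes the Cufflinks intervals of Days 0 and 4 overlapped, and PAX6 was at 2.72 FPKM on Day 3. The sum of the 5 markers, carried mostly by ZIC1, was 7.22, 32.8, 30.3, 29.2 and 22.5 FPKM over Days 0 to 4. In the mutant line this sum was 5.11 and 8.60 FPKM. For 5 fibroblast or feeder markers it ranged from 16.7 to 36.5 FPKM, carried by COL1A1 and COL1A2, while DCN and LUM were at 0 in every library and COL3A1 in all but 1, where it was at 0.102 FPKM. Like the sums of the mesendoderm and of the neuroectoderm markers, FZD1, FZD2, FZD4 and FZD8 had higher values at Days 2 to 4 than at Day 0 and in both mutant libraries. For FZD2 the margin was small, at 11.8 FPKM on Day 4 against 11.2 FPKM in the mutant line with Dox. The part of cell composition in the Frizzled values was not tested.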

How the data were processed

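Poly(A) RNA libraries (directional kit, single-end 150-base MiSeq reads) were made from 7 cultures, 1 per condition. The authors mapped reads to hg19 with TopHat 2.0.13, estimated FPKM per gene with Cufflinks 2.1.1 and deposited the FPKM values with their 95% bounds. CASAVA 1.4 is also named in the submitters' processing notes. The annotation release and the strand setting are not given in the sources used here. Replicates were not pooled, as there were none.

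From these values, ratios were calculated between libraries, joined by gene identifier and position. Calls used a ratio above 2, or below 0.5, with more than 4 FPKM in the higher library. Log2 fold changes used a pseudocount of 1, which understates changes of low genes. The genes tested were those on chromosomes above 4 FPKM in either library, without the 1 entry marked FAIL. No test across genes was made. Read numbers came from the steps of low FPKM values of 1-exon, 1-transcript genes of at least 800 bases (GENCODE release 44 on GRCh37), with 200 bases subtracted from the length. Depending on the library, 82.1% to 87.8% of values under 13 reads lay within 0.1 of a whole number. Ratios of reads have exact conditional 95% intervals, ratios of ratios approximate ones. Strand, exon number and overlaps came from GENCODE, positions from the deposited files, and start regions from RefSeq.

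Named genes are the 10 members, KDM6B, pathway genes called at Day 4 or with Dox in the mutant line and up to 3 of the highest at Day 0 per list, plus the 3 genes most like each varying member, except where stated. LRP5, LRP6, RNF43, NDP, PRSS23 and the cell type markers were named outside this rule. Members, lists and rules were chosen with earlier results of these data known. Alternatives changed the cutoff, ratio, scaling, pseudocount, use of intervals and the libraries compared. Protein sequences were not used here, so identity between members was not calculated. The steps were tested on simulated data and run with Python 3.11.15 (matplotlib 3.10.9, numpy 2.4.6, scipy 1.17.1, pandas 2.3.3).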

Additional observations from a re-analysis of the deposited data

Results flagged for a closer look

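For 6 of the 10 Frizzled genes, the log2 fold change with Dox had opposite signs in the JMJD3c line and in the mutant line. The difference of their log2 fold changes (JMJD3c line minus mutant line) was 1.04 for FZD1, -0.30 for FZD3, 0.66 for FZD4, 0.45 for FZD5, -0.26 for FZD6 and -1.15 for FZD9. With 1 library per condition, these differences were not tested. The share of all genes with opposite signs was not calculated, so the count does not set the family apart. For 3 of the 6 (FZD1, FZD4 and FZD5) the Cufflinks intervals were apart in either line, and the values of FZD3, FZD6 and FZD9 lay within overlapping intervals. Over all genes above the cutoff, intervals were apart for 12.1% at Day 4 against Day 0 and for 3.14% with Dox in the mutant line. With upper-quartile scaling FZD6 had the same sign in both lines (0.04 and 0.17), leaving 5 members. For FZD1 and FZD9 the counting intervals of the ratio of ratios, 0.710 to 28.1 and 0.00699 to 1.31, include 1.

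Of 26 named pathway genes, 10 also had opposite signs, 9 with median-ratio and 7 with upper-quartile scaling. PTK7 lost it under both and SMO and DVL1 under the second, and all 3 lay close to 0. Intervals were apart in either line for 3 of the 10 (WNT3, WNT5A and CSNK1A1). The same difference was 1.49 for WNT3, 1.30 for TSPAN12, 1.23 for SHISA3 and 1.16 for WNT5A, and it was -1.05 for WNT5B, -0.73 for GPR124, -0.64 for CSNK1A1, -0.27 for SMO, -0.22 for DVL1 and -0.06 for PTK7. None of these was tested either, and the count of opposite signs again has no share over all genes beside it. For WNT5A the difference came from the mutant line, where its log2 fold change was -1.07 against 0.09 in the JMJD3c line.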

How the results depend on the processing

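No paired analysis was possible because each condition had 1 library, and no replicate could be left out. Of 94 counts of called members under an alternative, 66 stayed within 1.5 times the reported count and 28 did not. With a cutoff of 1 FPKM or none, FZD1 joined FZD2 among the upregulated at Days 3 and 4 (2 members each), and FZD9 was downregulated at Days 2, 3 and 4 (1 each). Against the mutant line with Dox, 3 members were then higher at Day 4 (FZD1, FZD4 and FZD10), and with no cutoff 1 was lower (FZD9). Between the untreated libraries, 2 were lower at 1 FPKM and 3 with no cutoff. At a ratio of 1.5, 2 members were upregulated at Days 1 and 2 (FZD2 and FZD4) and 3 at Days 3 and 4 (also FZD8), 1 with Dox in the mutant line (FZD2), 2 higher (FZD4 and FZD8) and 1 lower (FZD3) against the mutant line with Dox, and 1 between the untreated libraries (FZD3). Looser rules call more genes everywhere, and the share of all genes called under them was not calculated. The larger counts therefore do not set the family apart from other genes. Against the untreated mutant line, 1 member was higher at Day 1 (FZD4) and 0 at Day 2. At Day 3 the number was 3 (FZD2, FZD4 and FZD8), and at Day 4 it was 2 (FZD4 and FZD8). Upper-quartile scaling called 1 member at Day 1 (FZD2). It moved all genes of a comparison by at most 0.14 on the log2 scale, and the median-ratio scaling by at most 0.06. None of 320 log2 fold changes of members reversed a call, but only a called member could, and another pseudocount cannot change a sign. Signs of uncalled members did change, as for FZD6 at Day 4 against Day 0, from -0.07 to 0.04 with upper-quartile scaling. Of the 320, 7 moved out of their Cufflinks range under another pseudocount, and all 14 rescaled sums stayed within theirs. The cause of these changes is the construction of each alternative. Depth limits FZD1, FZD9 and FZD10, with 1 to 21 estimated reads in a library.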
